A study of Homo sapiens with 16 samples.

Results

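The replication-dependent histone genes encode the core histones H2A, H2B, H3 and H4 and the linker histone H1 that are made while DNA is copied. They were examined here as sites of ARID1A, H3K9me3, TRIM28 and SETDB1 by chromatin immunoprecipitation sequencing (ChIP-seq) in HCT116, a widely used cell line from a human colon carcinoma. Members were the protein-coding genes with symbols H1-1 to H1-6, or H2AC, H2BC, H3C or H4C followed by a number, in the RefSeq table of GRCh38.p14. This gave 69 of 19974 protein-coding genes on chromosomes 1 to 22 and X. They comprised 6 H1, 17 H2A, 18 H2B, 13 H3 and 15 H4 genes, and 55 of them lay on chromosome 6, 13 on chromosome 1 and 1, H4C16, on chromosome 12. The rule reads gene symbols and no peak values.

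These genes are known for their clusters, where the histone locus body forms, and for transcripts that end in a stem-loop in place of a poly(A) tail. H2A and H2B genes often sit head to head and share the DNA between their start sites as a divergent promoter. SETDB1 is a methyltransferase for lysine 9 of histone H3, H3K9me3 is the mark it leaves, best known from silent heterochromatin, and TRIM28 is a corepressor through which it is brought to DNA. ARID1A is a DNA-binding part of SWI/SNF, a complex that moves nucleosomes.

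The series held 16 samples in 3 cell states, all HCT116: cells whose label names no shRNA (unmodified), cells whose titles read CTR, taken as the shCtrl cells of the design text, and shARID1A cells. ARID1A was precipitated in unmodified and shCtrl cells, SETDB1 in shCtrl and shARID1A cells, and both H3K9me3 and TRIM28 in all 3 states, so that 10 libraries gave 20 peak lists, one against input chromatin and one against IgG for each library. The labels do not give the shRNA sequence, the vector or whether a line is a clone. For H3K9me3 and TRIM28 the labels name 1 antibody product in the protocol and another in the sample characteristics. Each group was 1 library, so differences between cell states could not be set against replicate spread, and every interval below reflects counting error alone. No ARID1A list of the shARID1A cells was used here.

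Peak lists differed greatly in length and strength. Input lists ran from 11374 peaks (unmodified H3K9me3) to 203714 (shARID1A TRIM28), and peaks with a q of at most 0.05, called strong here, ranged from 15 in unmodified H3K9me3 to 37702 in shCtrl SETDB1. By share of strong peaks, some libraries overlapped a library of another antibody more than their namesake. Of 12115 strong input peaks of the library labelled shARID1A H3K9me3, 53.5% lay at a strong peak of shCtrl SETDB1, 4.68% at one of shARID1A SETDB1 and 2.43% at one of shCtrl H3K9me3. Those lists held, in that order, 37702, 1363 and 6833 strong peaks. The shares are not adjusted for these lengths. Of 6833 strong peaks of shCtrl H3K9me3, 65.3% lay at a strong shCtrl SETDB1 peak. Libraries are therefore named by their labels below, and the count over libraries is also given without these 3. Sequencing depth is unknown.

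The following 6 promoters show what lay under and outside the peaks described below. The first 3 are the stretches between head-to-head start sites, read on the plus strand, and the last 3 are the 250 bases before an H4 start site. They are RefSeq sequences of GRCh38.p14, written 5′ to 3′, with matches to TATAAA, to CCAAT or to the octamer ATTTGCAT, on either strand, in capitals.
H2BC4 and H2AC6, chr6:26123927-26124171, under a shCtrl SETDB1 peak: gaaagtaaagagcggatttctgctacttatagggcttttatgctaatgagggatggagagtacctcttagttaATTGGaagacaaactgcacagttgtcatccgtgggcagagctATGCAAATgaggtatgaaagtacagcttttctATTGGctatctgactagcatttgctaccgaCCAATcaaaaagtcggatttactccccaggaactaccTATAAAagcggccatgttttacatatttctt
H2AC15 and H2BC15, chr6:27838376-27838568, under a shCtrl SETDB1 peak: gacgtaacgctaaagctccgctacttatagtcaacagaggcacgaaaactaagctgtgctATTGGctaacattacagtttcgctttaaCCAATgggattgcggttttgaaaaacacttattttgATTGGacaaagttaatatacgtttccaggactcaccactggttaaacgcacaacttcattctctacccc
H2BC8 and H2AC8, chr6:26216689-26216920, under no peak of any list: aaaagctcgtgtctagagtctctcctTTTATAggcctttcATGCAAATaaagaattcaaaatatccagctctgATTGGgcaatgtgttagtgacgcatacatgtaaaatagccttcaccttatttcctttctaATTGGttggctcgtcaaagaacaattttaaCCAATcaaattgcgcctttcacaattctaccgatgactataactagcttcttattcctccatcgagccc
H4C14, chr1:149832407-149832656, plus strand, under a shCtrl SETDB1 peak: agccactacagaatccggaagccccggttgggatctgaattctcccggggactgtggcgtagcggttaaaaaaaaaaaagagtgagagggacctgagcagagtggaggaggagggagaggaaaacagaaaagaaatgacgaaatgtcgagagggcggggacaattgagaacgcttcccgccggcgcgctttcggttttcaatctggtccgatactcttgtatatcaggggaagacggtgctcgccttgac
H4C8, chr6:26285535-26285784, minus strand, under a shCtrl SETDB1 peak: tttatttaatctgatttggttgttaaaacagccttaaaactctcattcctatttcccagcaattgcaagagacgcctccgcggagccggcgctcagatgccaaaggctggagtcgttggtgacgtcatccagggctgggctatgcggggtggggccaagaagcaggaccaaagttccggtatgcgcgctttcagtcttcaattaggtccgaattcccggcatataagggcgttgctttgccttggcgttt
H4C6, chr6:26240143-26240392, plus strand, under no peak of any list: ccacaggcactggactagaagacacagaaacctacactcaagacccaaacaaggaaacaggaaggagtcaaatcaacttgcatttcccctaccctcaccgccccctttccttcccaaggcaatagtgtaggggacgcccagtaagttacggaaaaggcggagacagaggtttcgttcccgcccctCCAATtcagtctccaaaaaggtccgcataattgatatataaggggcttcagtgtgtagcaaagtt
In the H2AC6 sequence TATAAA began 31 bases before the H2AC6 start site and an octamer on the opposite strand at position -130, counted back from that start site. H2AC8, with no input peak in any library, also held an octamer, at position -192, and 3 CCAAT matches. The H4C14 and H4C8 sequences held none of these motifs.

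Over all 64 members with a start site in the RefSeq promoter table, 300-base windows (250 before and 50 after the start) held TATAAA in 42 (65.6%), against 9.75% of 15812 protein-coding promoters in that table. CCAAT was in 54 (84.4%, against 36.4%), with all 6 H1, 16 H2A, 18 H2B and 11 H3 windows and 3 of 13 H4 windows. The octamer was in 26 (40.6%, against 1.72%), in 14 of 18 H2B, 11 of 16 H2A and 1 of 11 H3 windows, and in none of the H1 and H4 windows. Median GC content was 43.2%, against 62.7% over all promoters. Members with and without a shCtrl SETDB1 peak near the start site had these motifs at shares of 68.9% and 57.9% for TATAAA, 80.0% and 94.7% for CCAAT and 37.8% and 47.4% for the octamer.

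A member was counted when an input peak overlapped its body, extended by 1 kb on each side, by at least 1 bp. In the shCtrl SETDB1 library 49 of 69 members had a peak, 71.0% (95% exact Clopper-Pearson interval 58.8 to 81.3%), where 58.7% of all protein-coding genes had one. Members are short, with a median body of 494 bp against 24170.5 bp over all genes, so the same count was made within 1 kb of the start site, a window of equal length for every gene. There the share was 45 of 64 members, 70.3% (57.6 to 81.1%), against 30.2% of 15812 start sites. Strong peaks were found at 46 of 69 extended bodies, against 43.5% of all genes, and at 42 of 64 start sites, against 19.1% of all start sites. Against IgG, 51 members had a shCtrl SETDB1 peak (71.7% of all genes), and 46 of 64 start sites (43.8% of all start sites). All 49 members called against input were also called against IgG.

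No other library came near this share against input. At start sites, shCtrl ARID1A peaks were at 16 of 64 members (25.0%, interval 15.0 to 37.4%; 20.4% of all start sites), shARID1A TRIM28 peaks at 14 (26.6% of all), shARID1A H3K9me3 peaks at 12 (13.5%) and shARID1A SETDB1 peaks at 10 (15.8%). The start-site counts were 5 for unmodified TRIM28 (2.91% of all start sites), 4 for shCtrl H3K9me3 (6.55%), 3 for unmodified ARID1A (3.66%) and 3 for shCtrl TRIM28 (3.32%). The interval of every one of these 8 libraries reached from below to above its all-gene share. Unmodified H3K9me3 had no peak in any of the 69 extended bodies, which allows a share of up to 4.35%, and none at the 64 start sites, which allows up to 4.69%, against 13.6% and 0.715% of all genes. Over extended bodies the members called numbered 21 in shCtrl ARID1A (52.4% of all genes), 17 in shARID1A H3K9me3 (46.8%), 17 in shARID1A TRIM28 (72.4%), 12 in shARID1A SETDB1 (43.7%), 7 each in shCtrl H3K9me3 (46.8%), shCtrl TRIM28 (40.4%) and unmodified TRIM28 (28.4%), and 6 in unmodified ARID1A (25.8%). All of these shares lay below those of all genes, whose bodies are longer.

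**Figure D1:**
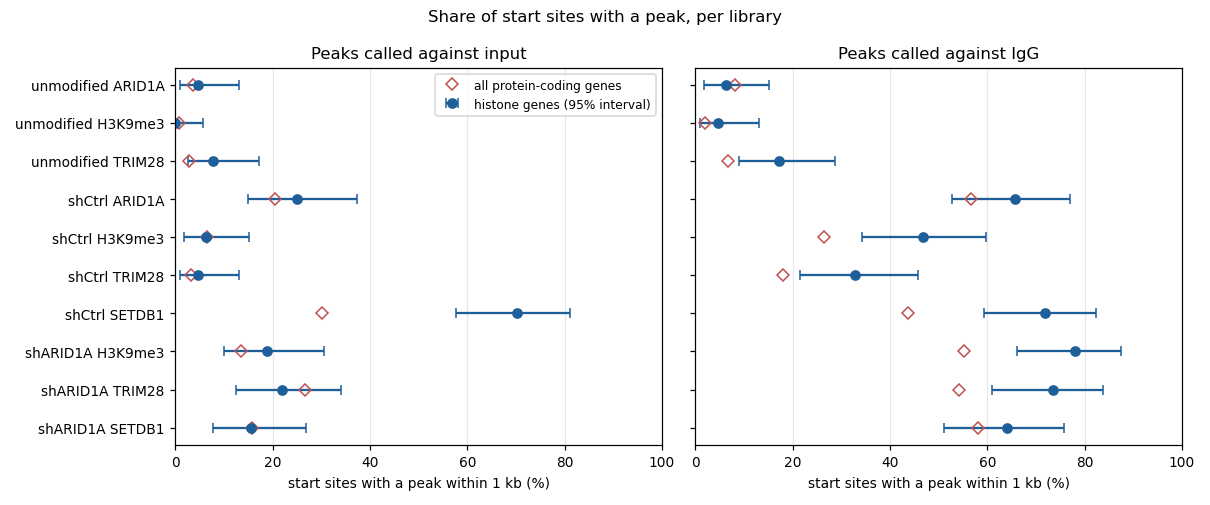
Share of start sites with a peak within 1 kb (%), for each of the 10 libraries, with peaks called against input (left) and IgG (right); filled circles are the 64 histone genes with 95% exact intervals for counting error, and open diamonds are all protein-coding genes. Against input the interval of shCtrl SETDB1 (57.6 to 81.1%) lies above the share of all start sites (30.2%), while against IgG the intervals of 6 libraries lie above theirs.

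Against IgG far more members had peaks, as did all genes. Over extended bodies the all-gene share ran from 26.3% (unmodified H3K9me3, 3 members) and 44.2% (unmodified ARID1A, 11) over 49.2% (unmodified TRIM28, 16) to 85.4% (shARID1A H3K9me3, 58), with 83.8% in shCtrl ARID1A (47), 83.6% in shARID1A SETDB1 (47), 83.4% in shARID1A TRIM28 (53), 77.9% in shCtrl H3K9me3 (41) and 75.9% in shCtrl TRIM28 (29). At start sites the counts were 50 of 64 for shARID1A H3K9me3 (55.2% of all start sites), 47 for shARID1A TRIM28 (54.2%), 42 for shCtrl ARID1A (56.6%), 41 for shARID1A SETDB1 (58.1%), 30 for shCtrl H3K9me3 (26.5%), 21 for shCtrl TRIM28 (18.1%), 11 for unmodified TRIM28 (6.8%), 4 for unmodified ARID1A (8.23%) and 3 for unmodified H3K9me3 (2%). The intervals of 6 libraries lay above the share of all start sites, those of unmodified TRIM28, shCtrl H3K9me3, shCtrl TRIM28, shCtrl SETDB1, shARID1A H3K9me3 and shARID1A TRIM28. Strong IgG peaks in the extended bodies numbered 48 members in shCtrl SETDB1 (58.1% of all genes), 28 in shARID1A H3K9me3 (48.3%), 12 in shARID1A SETDB1 (19.8%), 5 each in shCtrl ARID1A (7.6%), shCtrl H3K9me3 (22.8%) and shARID1A TRIM28 (10.4%), and 0 in unmodified ARID1A (2%), unmodified H3K9me3 (0.0501%), unmodified TRIM28 (0.0601%) and shCtrl TRIM28 (0.741%). Strong input peaks outside shCtrl SETDB1 were at 1 member, H4C14 in shARID1A H3K9me3 (17.4% of all genes), and at 0 in the others, with all-gene shares of 11.7% in shCtrl H3K9me3, 3.91% in shARID1A SETDB1, 3.88% in shARID1A TRIM28, 1.96% in unmodified ARID1A, 0.0851% in shCtrl ARID1A, 0.035% in shCtrl TRIM28, 0.025% in unmodified TRIM28 and 0.01% in unmodified H3K9me3. Since the input and IgG lists of a library share the precipitated reads, they are not independent.

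The shCtrl SETDB1 peaks followed the clusters unevenly. Where neighbouring members over 300 kb apart were split, chromosome 6 held blocks of 34, 5 and 16 members and chromosome 1 blocks of 11 and 2. On chromosome 1 all 13 members had an input peak, including the 11 genes from H2BC18 to H2AC21 (149782689 to 149887965) and the H2AC25 and H2BC26 pair. On chromosome 6 the count was 35 of 55, made up of 19 of 34 in the block from H2AC1 to H4C8 (25726063 to 26285534), 4 of 5 in the block from H2BC11 to H2AC12 and 12 of 16 in the block from H2BC13 to H2BC17. H4C16 on chromosome 12, the only member outside a cluster, had 1 input peak of 4.80-fold with its summit at position -21 from the start site. The interval of the 13 genes on chromosome 1 (75.3 to 100%) and that of the 55 on chromosome 6 (49.6 to 76.2%) overlapped little, but neighbours share peaks and are not independent.

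Members without a shCtrl SETDB1 input peak lay in 7 runs of neighbours, all on chromosome 6. The longest, from H1-3 to H2BC10 (26234212 to 26273412), held 7 genes over 39.2 kb: H1-3, H4C6, H4C7, H3C7, H2BC9, H3C8 and H2BC10. A run of 4 held H2AC16, H1-5, H3C11 and H4C13, and the cluster began with a run of 3, H2AC1, H2BC1 and H1-1. The others were H2BC3 with H3C3, H2BC8 with H2AC8, and H2BC6 and H4C9 alone. Of these 20 genes H2BC3 and H3C3 had a shCtrl SETDB1 peak against IgG, and the remaining 18 had none in either list. No input peak in any of the 10 libraries was listed for 9 members, which by definition lie within these runs: H2BC1, H2BC6, H2BC8, H2AC8, H4C6, H4C7, H3C7, H2BC10 and H4C9. H4C6 and H4C9 had no peak against IgG either. Expression was not measured here.

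**Figure D2:**
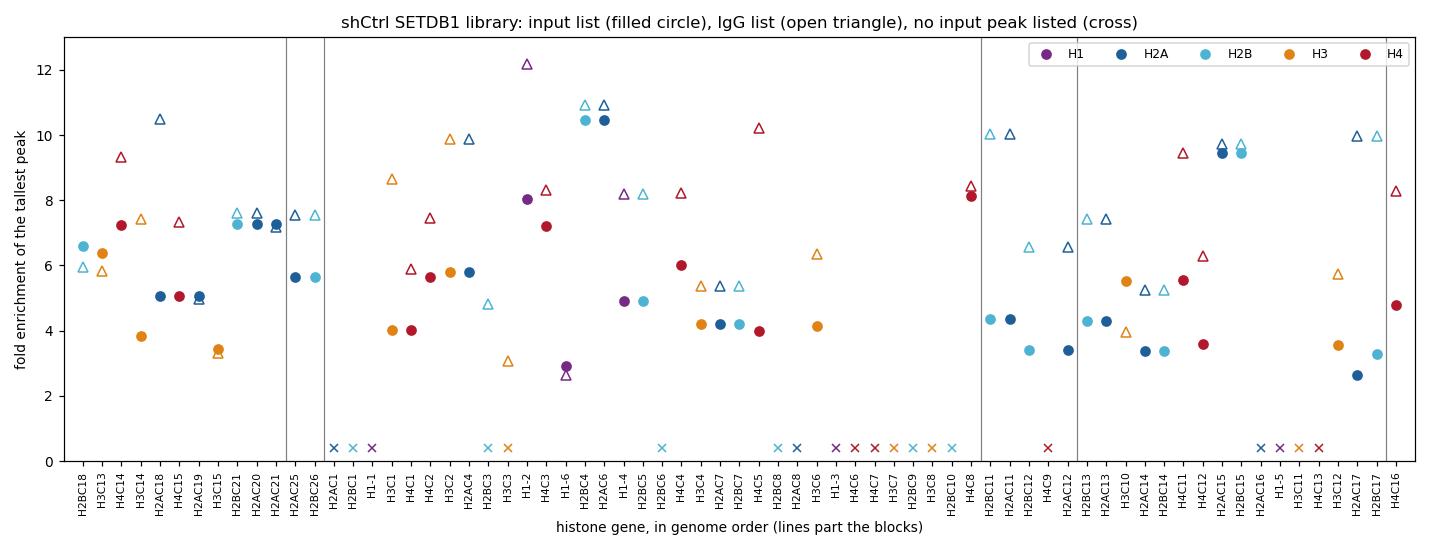
Fold enrichment of the tallest shCtrl SETDB1 peak (linear scale) for each of the 69 members in genome order, coloured by histone class; filled circles are input peaks, open triangles IgG peaks, crosses members with no input peak, and vertical lines part the blocks. Crosses are found only in the chromosome 6 blocks, with 7 in a row from H1-3 to H2BC10.

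By histone class, shCtrl SETDB1 input peaks were at 14 of 17 H2A genes (82.4%, interval 56.6 to 96.2%), 11 of 15 H4 genes (73.3%, 44.9 to 92.2%), 9 of 13 H3 genes (69.2%, 38.6 to 90.9%), 12 of 18 H2B genes (66.7%, 41.0 to 86.7%) and 3 of 6 H1 genes (50.0%, 11.8 to 88.2%). All 5 intervals overlapped, so the classes were not distinguishable at these numbers. Strong peaks were at 13 H2A, 12 H2B, 11 H4, 8 H3 and 2 H1 genes. The H1 genes with a peak were H1-2, H1-4 and H1-6, and those without were H1-1, H1-3 and H1-5.

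**Figure D3:**
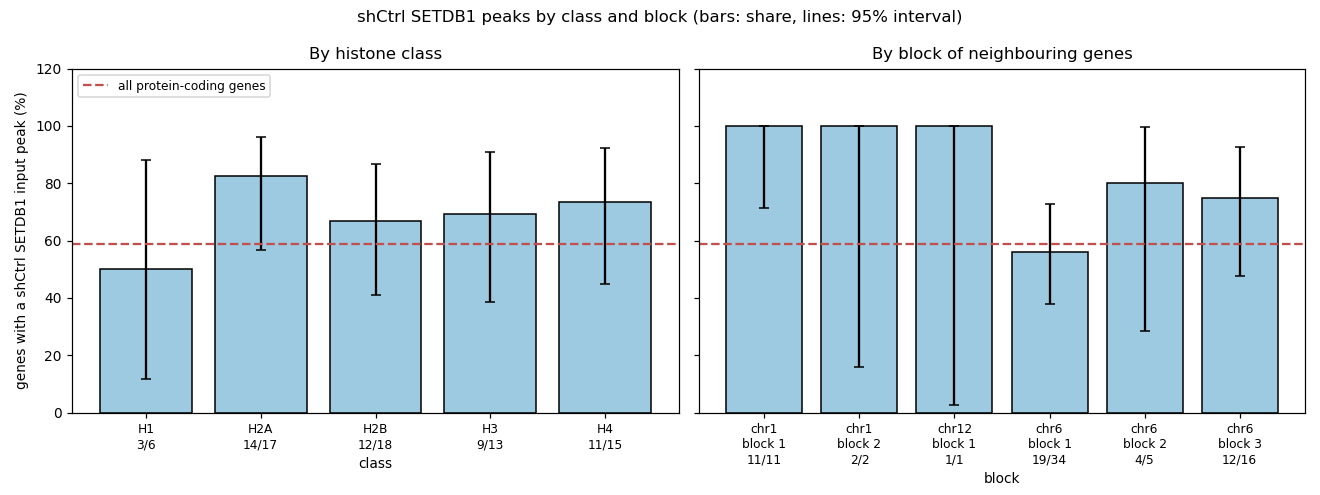
Share of members with a shCtrl SETDB1 input peak in the extended body (%), by histone class (left) and by block of neighbouring genes (right); bars are shares, lines 95% exact intervals, and the dashed line the share of all protein-coding genes (58.7%). The 2 chromosome 1 blocks and the single gene on chromosome 12 stand at 100%, and the first chromosome 6 block is the lowest of the blocks at 55.9%.

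The fold enrichment of the tallest shCtrl SETDB1 input peak per member ran from 2.65 to 10.4 with a median of 4.90, where the median over all peaks of that list was 3.48 and the 99th percentile 11.4. The highest was the region at 26122527 to 26123493 (10.4-fold, −log10 q 16.8), which lies in the long annotated body of H2BC4 and within 1 kb of H2AC6. H2AC15 and H2BC15 shared the next, of 9.43-fold. H4C8 followed with 8.12-fold, centred at position -963 from its start site, beside a lower one of 4.66-fold over the start site itself, and H1-2 with 8.04-fold, centred 1391 bp downstream of its start site and beyond its 731 bp body. H2BC21, H2AC20 and H2AC21 on chromosome 1 shared a peak of 7.28-fold. H4C14 (7.24), H4C3 (7.20) and H2BC18 (6.58) completed the 12 highest. The lowest was the peak of H2AC17 (2.65), which was not strong. In all, 78 distinct peaks lay in the 69 windows, 50 of them strong, 32 of them in the windows of 2 or more members, so the genes called are fewer independent sites than their count.

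Peak positions were not spread evenly over the genes. Across the 64 start sites, the share covered by a shCtrl SETDB1 input peak was 64.1% at 100 bp upstream (9.94% of all start sites), 59.4% at the start site (7.58%), 14.1% at 300 bp downstream (3.92%) and 37.5% at 800 bp downstream (4.53%). The second rise lay just past the end of most genes. Among the 56 members with a start site and a body of at most 1000 bp, a summit lay upstream of the start site in 36, inside the body in 6 and past the gene's end in 25, and 24 genes had a summit on both sides. Against IgG the counts were 38, 5, 29 and 28. A peak past the end of one gene can lie upstream of the next, as members are closely spaced. The shCtrl ARID1A input peaks had a summit upstream in 6 of these genes, in the body in 5 and downstream in 8, and the shARID1A H3K9me3 input peaks in 2, 8 and 2. Against IgG both of these libraries had 24 genes with a summit upstream, 18 in the body and 25 downstream. These differences in placement were not tested.

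**Figure D4:**
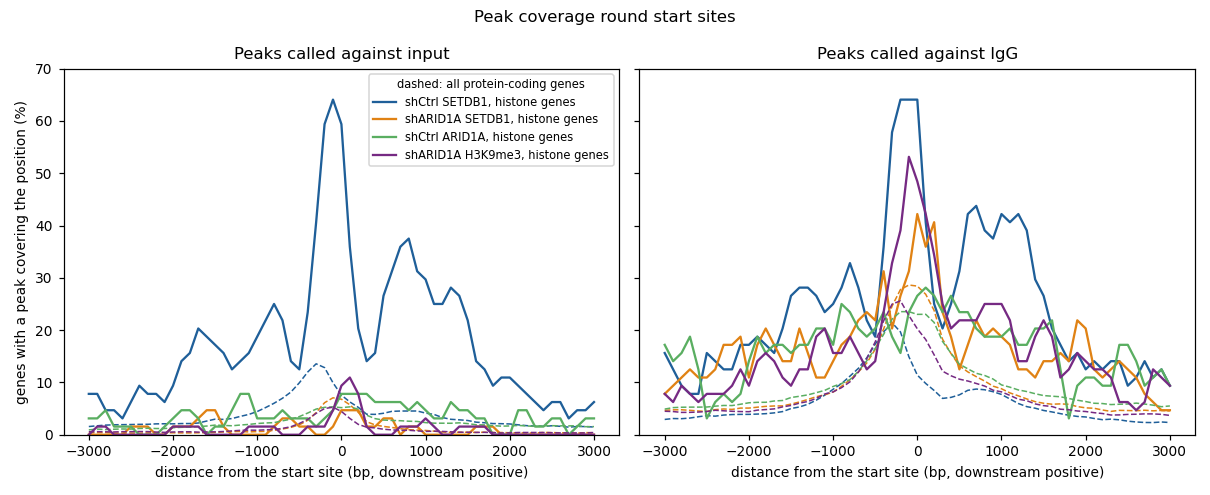
Share of start sites covered by a peak (%) against the distance from the start site (bp, downstream positive), for input lists (left) and IgG lists (right); solid lines are the 64 histone genes in 4 libraries and dashed lines all protein-coding genes. The shCtrl SETDB1 line peaks at 64.1% 100 bp upstream in the input lists, dips to 14.1% at 300 bp and rises again to 37.5% at 800 bp.

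Head-to-head genes showed the upstream peak as a shared one. In 13 pairs, counted by gene, a minus-strand and a plus-strand member started within 1 kb of each other, at 194 to 248 bp in 12 pairs and at 979 bp in the pair of H3C7 and H2BC9. H3C4 and H2AC7 have the same annotated start site and both pair with H2BC7, so 1 gap is counted in 2 pairs. A single shCtrl SETDB1 input peak spanned both start sites in 9 of 13 pairs, and touched the stretch between them in 10. The peak over H2AC15 and H2BC15 was 536 bp wide, reached 9.43-fold and had its summit 141 bp from the H2AC15 start in a gap of 194 bp. That over H2BC21 and H2AC20 was 7.28-fold, over H2AC25 and H2BC26 5.65-fold, over H2BC11 and H2AC11 4.34-fold, over H2BC13 and H2AC13 4.30-fold, over H2AC7 and H2BC7 4.20-fold, over H2BC4 and H2AC6 4.02-fold and over H2AC14 and H2BC14 3.38-fold. The H2AC17 and H2BC17 gap held a peak of 2.65-fold that reached only 1 start. The gaps of H2AC1 and H2BC1, H2BC8 and H2AC8, and H3C7 and H2BC9 held none. No other input list had a peak over both starts of any pair. Against IgG such peaks were found in 10 pairs for shCtrl SETDB1, 4 for shARID1A H3K9me3, 4 for shARID1A SETDB1, 2 for shARID1A TRIM28, 1 for shCtrl ARID1A and 1 for shCtrl TRIM28.

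The study compared shCtrl with shARID1A cells. In the SETDB1 libraries the members with an input peak numbered 49 in shCtrl and 12 in shARID1A, and all 12 were among the 49. Strong input peaks were at 46 and at 0. The share of all genes was 58.7% and 43.7%, and of all genes with a strong peak 43.5% and 3.91%, and the input lists held 79404 and 39245 peaks in all. The 12 genes were H4C14, H3C14, H2AC18, H4C15 and H2AC19 on chromosome 1 and H4C3, H1-4, H3C4, H2AC7, H2BC7, H2BC13 and H2AC13 on chromosome 6, at 1.95 to 2.86-fold. Against IgG the counts were 51 and 47, with 46 shared, where the share of all genes was 71.7% and 83.6% and the lists held 114369 and 276586 peaks. Strong IgG peaks were at 48 and 12 members, and at 58.1% and 19.8% of all genes. The members with the tallest shARID1A SETDB1 peak against IgG were H4C12 (6.83-fold, centred at position -7), H3C2 (4.61), and H2AC13, H2BC13 and H2AC4 (4.56 each). By count of peaks the states differed by 37 members against input and 4 against IgG. How much of it follows from depth, from the control libraries or from the labels was not tested.

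At single genes the 2 SETDB1 libraries stood as follows, each fold being relative to its own list. H2BC4 had 10.4-fold in shCtrl and no input peak in shARID1A, and 10.9-fold and 3.005-fold against IgG. H2AC15 had 9.43-fold and none against input, and 9.74-fold and 3.52-fold against IgG. H1-2 had 8.04-fold and none against input, and 12.2-fold and 3.17-fold against IgG. H4C14 had 7.24-fold and 2.47-fold against input, and 9.33-fold and 4.40-fold against IgG. All 4 genes had an IgG peak in the shARID1A library, and of these only that of H4C14 was strong. The tallest peaks of the libraries need not be the same peak. For H2BC4 the shCtrl IgG peak was at 26122527 to 26123509 and the shARID1A one at 26124043 to 26124418, where shCtrl had a peak of 7.34-fold. For H1-2 they were centred 1390 and 99 bp downstream of the start site, while for H2AC15 they were centred at positions -141 and -143.

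H3K9me3 and TRIM28 went the other way in count. H3K9me3 input peaks were at 7 members in shCtrl and 17 in shARID1A, with 5 shared, at 46.8% of all genes in both. Against IgG the counts were 41 and 58, and the shares of all genes 77.9% and 85.4%. Within 1 kb of the start site, input peaks were at 4 and 12 of 64 members, and the share of all start sites also rose, from 6.55% to 13.5%. The tallest shARID1A H3K9me3 input peaks were at H1-6 (3.67-fold), H4C14 (3.16) and H3C11 (3.02), and that of H4C14 was the only strong one. By class, 7 of 15 H4 genes had such a peak (46.7%, interval 21.3 to 73.4%, beside 46.8% of all genes) and 10 of the other 54 members did. The H4 genes included H4C14 with H4C15 and H4C11 with H4C12, whose promoters are near copies. H4C13 and its neighbour H3C11 had the same fold (3.02), and the classes were not tested. Of the 14 distinct peaks behind the 17 calls, 11 lay at a shCtrl SETDB1 peak, 3 at a shARID1A SETDB1 peak and 1 at a shCtrl H3K9me3 peak. Those lists had input peaks at 49, 12 and 7 of the 69 members, in that order. The matching shares of all shARID1A H3K9me3 peaks are not given here. Whether the label of this library bears on the count was not tested. The tallest shCtrl H3K9me3 peaks were at H2BC18 and H2BC4 (3.25 each), inside their long bodies, and at H4C8 (3.22). That of H2BC18 was centred 24436 bp from its start site, inside FCGR1A, another gene that its annotated body overlaps. TRIM28 input peaks were at 7 members in shCtrl and 17 in shARID1A, while the share of all genes was 40.4% and 72.4%. No member was in both sets, but the sets are small and their overlap was not tested. The share of all genes in both sets is not given here. These input peaks were tallest at H2BC3 (3.41), H2BC9 (3.38) and H2AC15 (3.16) in shCtrl and at H4C16 (3.35), H3C8 (3.13) and H2AC14 (2.89) in shARID1A. None was strong. Against IgG the counts were 29 and 53, with 28 shared, and the shares of all genes 75.9% and 83.4%.

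ARID1A was mapped in unmodified and shCtrl cells. Input peaks were at 6 and 21 members, with 4 shared, and at 25.8% and 52.4% of all genes. The tallest in shCtrl was at H3C13, an H3 gene of chromosome 1 (5.16-fold, centred 65 bp downstream of its start site), and its IgG peak was strong (5.45-fold). H2BC18 and H2BC4 followed at 3.90 each, within bodies of 29682 and 10757 bp, 25028 and 5181 bp from the start. The H2BC18 body overlaps another gene, FCGR1A (149782694 to 149800609), and this H2BC18 peak was centred inside FCGR1A. Of the 21 members in shCtrl, 19 also had a shCtrl SETDB1 input peak, where 49 of all 69 members had one. Of the 27 shCtrl ARID1A peaks in the extended bodies, 11 overlapped a SETDB1 peak. The matching share of all ARID1A peaks is not given here. Whether the overlap exceeds that of other genes was not tested. In unmodified cells the tallest were at H2AC11 (2.41), H2BC9 (2.39) and H2BC4 (2.12). Unmodified TRIM28 had its tallest peaks at H2AC25 and H2BC26 (3.41, shared) and H3C3 (3.13).

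Peaks of other libraries were also counted separately in members with and without a shCtrl SETDB1 peak against IgG, and the differences were not tested. Among the 51 members with a shCtrl SETDB1 peak against IgG, 46 also had a shARID1A SETDB1 peak against IgG, and among the 18 without such a peak 1 did. Counts for shCtrl ARID1A were 44 of 51 and 3 of 18, for shARID1A TRIM28 49 and 4, and for shARID1A H3K9me3 50 and 8. These counts are over extended bodies, for which the split of all genes is not given here. Unmodified TRIM28 was nearly level, at 12 of 51 (23.5%) and 4 of 18 (22.2%). Input peaks of TRIM28 at start sites were few. For shARID1A TRIM28 they were at 9 of 46 members with (19.6%) and 5 of 18 without (27.8%) a shCtrl SETDB1 IgG peak. For shCtrl TRIM28 they were at 1 (2.17%) and 2 (11.1%). Among all start sites these input shares were 30.9% and 23.2% for shARID1A TRIM28 and 4.14% and 2.68% for shCtrl TRIM28. Over all start sites the IgG lists were split as well, by other amounts. A shARID1A SETDB1 peak was at 84.3% of the 6932 start sites with a shCtrl SETDB1 IgG peak and 37.6% of the 8880 without, against 87.0% and 5.56% of the members. For shCtrl ARID1A the shares were 82.4% and 36.4% of all start sites and 89.1% and 5.56% of the members. For shARID1A TRIM28 they were 78.8% and 34.9% of all start sites and 93.5% and 22.2% of the members. For shARID1A H3K9me3 they were 84.9% and 32.0% of all start sites and 95.7% and 33.3% of the members. Unmodified H3K9me3 went the other way over all start sites, at 1.80% with and 2.15% without.

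**Figure D5:**
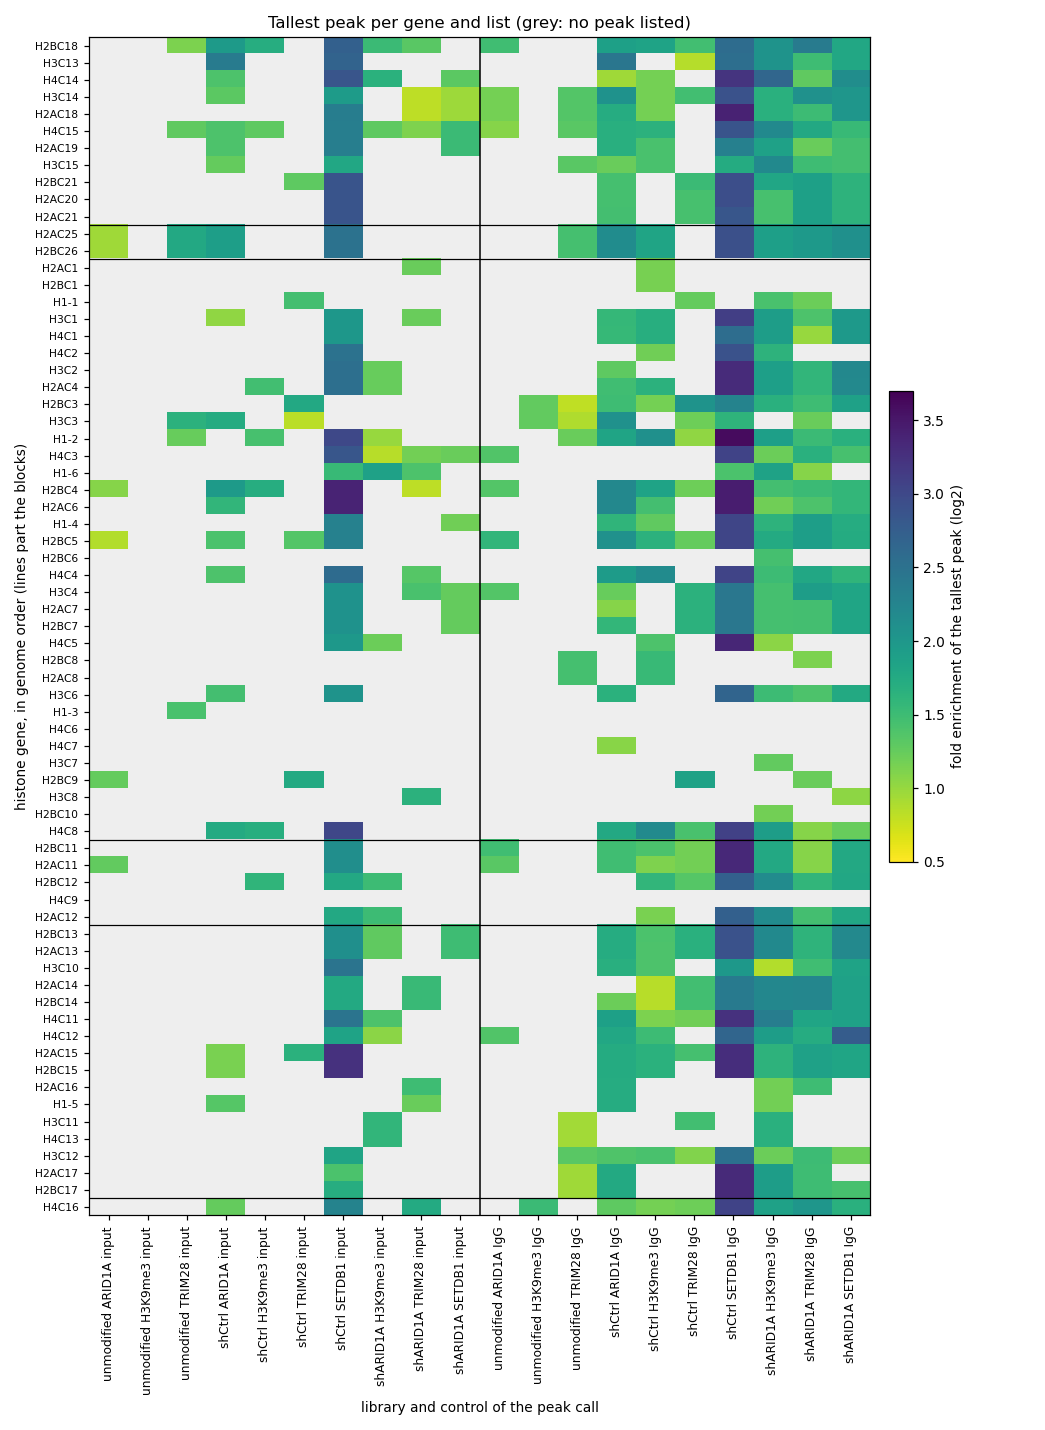
Fold enrichment of the tallest peak (log2 colour scale) for each of the 69 members in genome order (rows) in the 20 lists (columns, input left and IgG right of the vertical line); grey marks no listed peak and horizontal lines part the blocks. The shCtrl SETDB1 column is the fullest of the input lists, with 49 of 69 members, and the rows of H4C6 and H4C9 are grey throughout.

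Across the input lists H4C14 was listed at 7.24-fold in shCtrl SETDB1, 3.16 in shARID1A H3K9me3, 2.62 in shCtrl ARID1A and 2.47 in shARID1A SETDB1, and had no input peak in the other 6 libraries. H2BC4 was listed at 10.4 in shCtrl SETDB1, 3.90 in shCtrl ARID1A, 3.25 in shCtrl H3K9me3, 2.12 in unmodified ARID1A and 1.76 in shARID1A TRIM28. H1-2, a linker histone gene, was listed at 8.04 in shCtrl SETDB1, 2.70 in shCtrl H3K9me3, 2.37 in unmodified TRIM28 and 1.99 in shARID1A H3K9me3. In all 3 genes the shCtrl SETDB1 peak was the only strong input peak, save that of H4C14 in shARID1A H3K9me3. H2AC20 and H1-3 each had 1 input list with a peak, H2AC20 in shCtrl SETDB1 (7.28) and H1-3 in unmodified TRIM28 (2.66).

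Counted over libraries, 60 of 69 members had an input peak in at least 1 of the 10, and 42 without shCtrl SETDB1, shCtrl H3K9me3 and shARID1A H3K9me3. H4C15 had one in 7 libraries, H2BC18 in 6 and H2BC4 in 5, and these 3 genes have annotated bodies of 16753, 29682 and 10757 bp. A further 7 members had one in 4, among them H1-2, H2AC25 and H2BC26. Against IgG 66 members had a peak in at least 1 library. H4C15 overlaps the H2AC19 and H3C15 genes, so their peaks are counted for it too. Likewise H2BC18 overlaps FCGR1A and LOC124904411, which are not histone genes, and peaks there are counted for H2BC18.

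Some members are near copies whose reads can be assigned to either place. Among 2016 pairs of promoter windows the median identity was 41.3%, but H4C14 and H4C15 were 100% identical, H2AC18 and H2AC19 99.7%, H3C14 and H3C15 98.7%, and H4C11 and H4C12 98.3%. The values of these 8 genes are uncertain for that reason. The shCtrl SETDB1 input peaks with a summit just upstream of these start sites were 7.24-fold at H4C14 (position -108) and 4.91-fold at H4C15 (-81). They were 5.06-fold at H2AC18 (-93) and 5.05-fold at H2AC19 (-96). At the H3 copies they were 3.84-fold at H3C14 (-204) and 1.93-fold at H3C15 (-93), and at the other H4 copies 5.54-fold at H4C11 (-53) and 2.40-fold at H4C12 (-127). The tallest peak in the long H4C15 body, of 5.05-fold, is that of H2AC19.

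Related genes were counted the same way. Of 11 replication-independent histone genes, which are expressed outside S phase too, all 11 had a shCtrl SETDB1 input peak in the extended body and 5 of 10 at the start site, and 10 and 6 against IgG. The highest were at H2AZ1 (8.56-fold) and H3-3A (6.39). Of 16 genes for histone gene transcription and transcript processing, 7 had a peak in the extended body and 3 of 14 at the start site against input, beside 58.7% and 30.2% of all genes, and 12 and 9 against IgG, beside 71.7% and 43.8%. The highest were at SLBP (9.09), which encodes the stem-loop binding protein, POU2F1 (8.24), the octamer-binding factor, CASP8AP2 (7.23), a histone locus body component, and ZNF473 (6.08), a transcript processing factor. Of 7 other protein-coding genes lying within the blocks (FCGR1A, LOC124904411, SLC17A4, SLC17A3, SLC17A2, TRIM38 and HFE), 5 had a peak in the extended body and 3 at the start site, led by TRIM38 (8.24), and 4 and 2 against IgG. At 45 of 64, the start sites of the histone members had the highest share of these 4 groups, but lists of 7 to 14 start sites leave wide intervals and the difference was not tested.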

How the data were processed

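The files are peak lists of 10 ChIP-seq libraries of HCT116 cells, each called by the authors against input and against IgG. Per the submitters' processing notes the tools were MACS2 2.2.7.1, Bowtie2 2.2.5, FastQC 0.11.9, ChIPseeker and deepTools 3.5.1, on GRCh38 (hg38). Their settings, and how reads that map to several copies were handled, were not given in the sources used here. The deposited fold enrichment of a peak is the authors' ratio, as their peak caller writes it, and was used only to describe and rank peaks within a list. The deposited −log10 p-value and −log10 q-value come from the same call, and the control of a list was read from its name. Depth per sample is unknown, and the 6 input and IgG samples had no list of their own.

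Gene positions came from the RefSeq table of GRCh38.p14, and start sites and strands from its promoter table, which held 64 of the 69 members; H4C1, H4C3, H2AC12, H3C11 and H3C12 were not in it. Peaks on chromosomes 1 to 22 and X were used. A member was called by an overlap of at least 1 bp with its body extended by 1 kb. Strong peaks have a q of at most 0.05. Shares have 95% exact Clopper-Pearson intervals, and a count of 0 allows up to 3 counts of the total. Identity of promoters was the count of identical bases in a global alignment that allowed gaps, as a share of the 300 bases. The calling step was tested on simulated data. Python 3.11.15, pandas 2.3.3, NumPy 2.4.6 and SciPy 1.17.1 were used.

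Genes were named by a rule: the 12 members with the highest fold in shCtrl SETDB1, the 3 highest of each other library, members in the most libraries, members with no input peak, near-identical copies (98% or more), and up to 4 genes of each further list. The result of 1 gene that this rule names is not reported here. Genes beyond the rule, such as those in runs without a peak, were named after their values were seen. The members and lists were chosen with earlier results of these data known. Each count was repeated under 7 alternatives, and 3 more were added after the data were seen.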

Additional observations from a re-analysis of the deposited data

How the results depend on the processing

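Unless stated otherwise, the values below are counts of members that moved by more than 1.5 times, or between 0 and more, from the count with input peaks in the extended body. With peaks called against IgG the members called were 58 in shARID1A H3K9me3, 53 in shARID1A TRIM28, 47 in shCtrl ARID1A and shARID1A SETDB1, 41 in shCtrl H3K9me3, 29 in shCtrl TRIM28, 16 in unmodified TRIM28, 11 in unmodified ARID1A and 3 in unmodified H3K9me3. With input peaks of a q of at most 0.05 the members called were 1 in shARID1A H3K9me3 and 0 in unmodified ARID1A, unmodified TRIM28, shCtrl ARID1A, shCtrl H3K9me3, shCtrl TRIM28, shARID1A TRIM28 and shARID1A SETDB1. With peaks in both lists the members called were 3 in unmodified ARID1A. The 10000 highest input peaks were ranked by −log10 q, with ties ordered by −log10 p and then fold. Ties at a −log10 q of 0 made up 8.02% (shCtrl SETDB1) to 99.9% (shCtrl TRIM28) of an input list. With these 10000 the members called were 24 in shCtrl SETDB1, 8 in shCtrl ARID1A, 3 in unmodified TRIM28 and 2 in shCtrl TRIM28 and shARID1A SETDB1. They were 1 in shARID1A TRIM28 and 0 in unmodified ARID1A, shCtrl H3K9me3 and shARID1A H3K9me3. Without the 1 kb extension the members called were 13 in shCtrl ARID1A, 11 in shARID1A H3K9me3, 7 in shARID1A TRIM28 and 3 in unmodified ARID1A, shCtrl H3K9me3 and shCtrl TRIM28. Within 1 kb of the start site the members called were 4 in shCtrl H3K9me3 and 3 in unmodified ARID1A and shCtrl TRIM28. With IgG peaks of a q of at most 0.05 (added after the data were seen) the members called were 28 in shARID1A H3K9me3, 5 in shCtrl ARID1A and shARID1A TRIM28 and 0 in unmodified ARID1A, unmodified TRIM28 and shCtrl TRIM28. With IgG peaks within 1 kb of the start site (added after the data were seen) the members called were 50 in shARID1A H3K9me3, 47 in shARID1A TRIM28, 42 in shCtrl ARID1A, 41 in shARID1A SETDB1, 30 in shCtrl H3K9me3, 21 in shCtrl TRIM28, 11 in unmodified TRIM28 and 3 in unmodified H3K9me3. The share of all genes over the 10 libraries was 6.42 to 66.3% for peaks in both lists, 12.5 to 20.1% for the 10000 highest and 13.1 to 67.9% without the extension. A peak summit inside the window, in place of an overlap, moved none of the 10 counts by that much. The 49 members of shCtrl SETDB1 moved that far only with the 10000 highest peaks. Without shCtrl SETDB1, shCtrl H3K9me3 and shARID1A H3K9me3 (added after the data were seen) the members with an input peak in any library fell from 60 to 42. That change was less than 1.5 times. Each group was 1 library, so replicates could not be left out in turn, and shares rest on 69 genes that partly share peaks. The cause of these changes was not tested.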
